A study of Mus musculus with 4 samples.

Results

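Notch effectors of the HES and HEY families, Hes1, Hes5, Hes6, Hey1, Hey2 and Heyl, together with the feedback inhibitor Nrarp, were followed in single-cell RNA counts from the otic region of mouse embryos. These 7 genes were chosen by symbol, and each symbol was present once among the 32285 genes of all 4 matrices. Conditional mutants (cKO), with floxed Tbx2 (Tbx2f/f) and floxed Tbx3 (Tbx3f/f) under Pax2-Cre, gave 2 libraries, and control embryos, with Pax2-Cre and neither floxed gene, gave 2 libraries. Both genotypes also carried the Rosa26-GFPf/+ reporter. All embryos were Swiss-Webster at E10.5 with 34 to 36 somites, and dissociated otic vesicles with their ganglion and adjoining neural tube and pharyngeal tissue were sorted for GFP. Pax2-Cre acts in the otic placode lineage and also in parts of the hindbrain, and the sorted GFP-positive cells held cells other than otic cells. Vesicles were pooled from 2 cKO and 3 control embryos, and how embryos were divided among libraries is not given in the sources used here. Except where stated, the p-values therefore measure the spread between n = 2 libraries per genotype, which may be partly technical.

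Notch is a receptor that is cleaved when a neighbouring cell presents a ligand such as Dll1 or Jag1. The released fragment joins the DNA-binding protein Rbpj and switches on Hes and Hey genes, whose basic helix-loop-helix repressor proteins hold back proneural factors such as Neurog1. In the otic vesicle this exchange is known for setting how many cells of the anteroventral wall leave as neuroblasts of the cochleovestibular ganglion, and in the neural tube for keeping progenitors from differentiating. Hes6 is a special member: it is found in differentiating cells, opposes Hes1 and is usually not switched on by Notch itself. Nrarp binds the Notch complex and dampens it, and it is itself a Notch target.

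The members lie on mm10, in the GENCODE annotation, at chr16:30064384-30067796 (Hes1), chr4:154960923-154962371 (Hes5), chr1:91411483-91414038 (Hes6), chr3:8663359-8667256 (Hey1), chr10:30832359-30842801 (Hey2), chr4:123233556-123249875 (Heyl) and chr2:25180758-25183339 (Nrarp). Promoter sequences from RefSeq, build GRCm38.p6, were matched for 4 of the 7 members, Hes5, Hes6, Hey2 and Nrarp. The 250 bases before the start of Hes5, Hey2 and Nrarp are shown, because Hes5 and Hey2 went in opposite directions in otic cells of the cKO and Nrarp is the feedback gene of the set. Capitals mark GTGGGAA, the core bound by Rbpj, on either strand. The windows are chr4:154960673-154960922 on the plus strand for Hes5, chr10:30842784-30843033 on the minus strand for Hey2 and chr2:25180508-25180757 on the plus strand for Nrarp.
Hes5: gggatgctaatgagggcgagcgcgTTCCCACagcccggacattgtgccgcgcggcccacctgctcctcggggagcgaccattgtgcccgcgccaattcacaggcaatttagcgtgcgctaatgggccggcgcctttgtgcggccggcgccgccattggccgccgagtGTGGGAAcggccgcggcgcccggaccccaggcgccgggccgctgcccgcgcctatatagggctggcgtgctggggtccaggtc
Hey2: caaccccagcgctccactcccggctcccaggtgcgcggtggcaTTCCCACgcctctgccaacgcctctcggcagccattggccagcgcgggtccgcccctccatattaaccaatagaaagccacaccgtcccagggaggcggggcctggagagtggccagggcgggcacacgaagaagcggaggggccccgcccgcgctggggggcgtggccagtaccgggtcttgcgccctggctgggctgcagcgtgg
Nrarp: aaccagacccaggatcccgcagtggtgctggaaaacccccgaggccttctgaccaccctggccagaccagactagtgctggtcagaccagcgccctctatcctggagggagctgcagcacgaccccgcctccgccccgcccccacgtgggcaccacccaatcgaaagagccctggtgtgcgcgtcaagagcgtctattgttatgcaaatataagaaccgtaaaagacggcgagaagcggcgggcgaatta

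The Hes5 window held 2 such cores, which begin 226 and 83 bases before the start and lie on opposite strands. The Hey2 window held 1, at 207 bases before the start, and those of Nrarp and Hes6 held none. Among all 32851 mouse promoter windows of the same length, 5.42% held at least 1 core and 0.161% held 2 or more. The letters CACGTG, an E-box, occurred 1 time in the Nrarp window and in 6.02% of all windows.

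After filtering, 14399 of 19567 barcodes were kept, between 3220 and 3869 per library, and the libraries held between 106769747 and 128205192 UMIs. The median mitochondrial share was 1.31% and 1.38% in the cKO libraries, against 2.41% and 2.96% in the control libraries. Pairs of libraries had between 2 and 8 cell barcodes in common. Cells were clustered without the 7 members and without the other Notch pathway genes, and of 25 clusters 2 stayed unnamed and the others were given to 10 cell classes by marker genes; class names mean resemblance to those markers. Tbx3 in otic cells was at 22.3 and 17.7 CPM (UMIs of the gene per 1000000 UMIs summed over the class) in the cKO libraries, against 63.6 and 60.9 CPM in the control libraries, and Tbx2 at 68.8 and 67.4 CPM in the cKO libraries, against 92.1 and 102 CPM in the control libraries. Which exons are floxed is not given in the sources used here, and 3′ counts need not fall on them, so the remaining transcripts do not measure the deletion.

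The effectors were distributed differently over the tissues, as the plot of levels by class shows. All levels below are CPM of a class in a library, and an order of classes is a description with no test, since classes come from clustering the same cells. Statements that the genotypes were apart or did not overlap are descriptions too. With so few libraries the values of an unchanged gene can also lie apart, and the share of all genes that do was not counted. Leukocyte-like cells are given as a reference for background, but they may express members themselves, and Hes6 stood at 24.97 to 41.1 CPM in them.

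**Figure D1:**
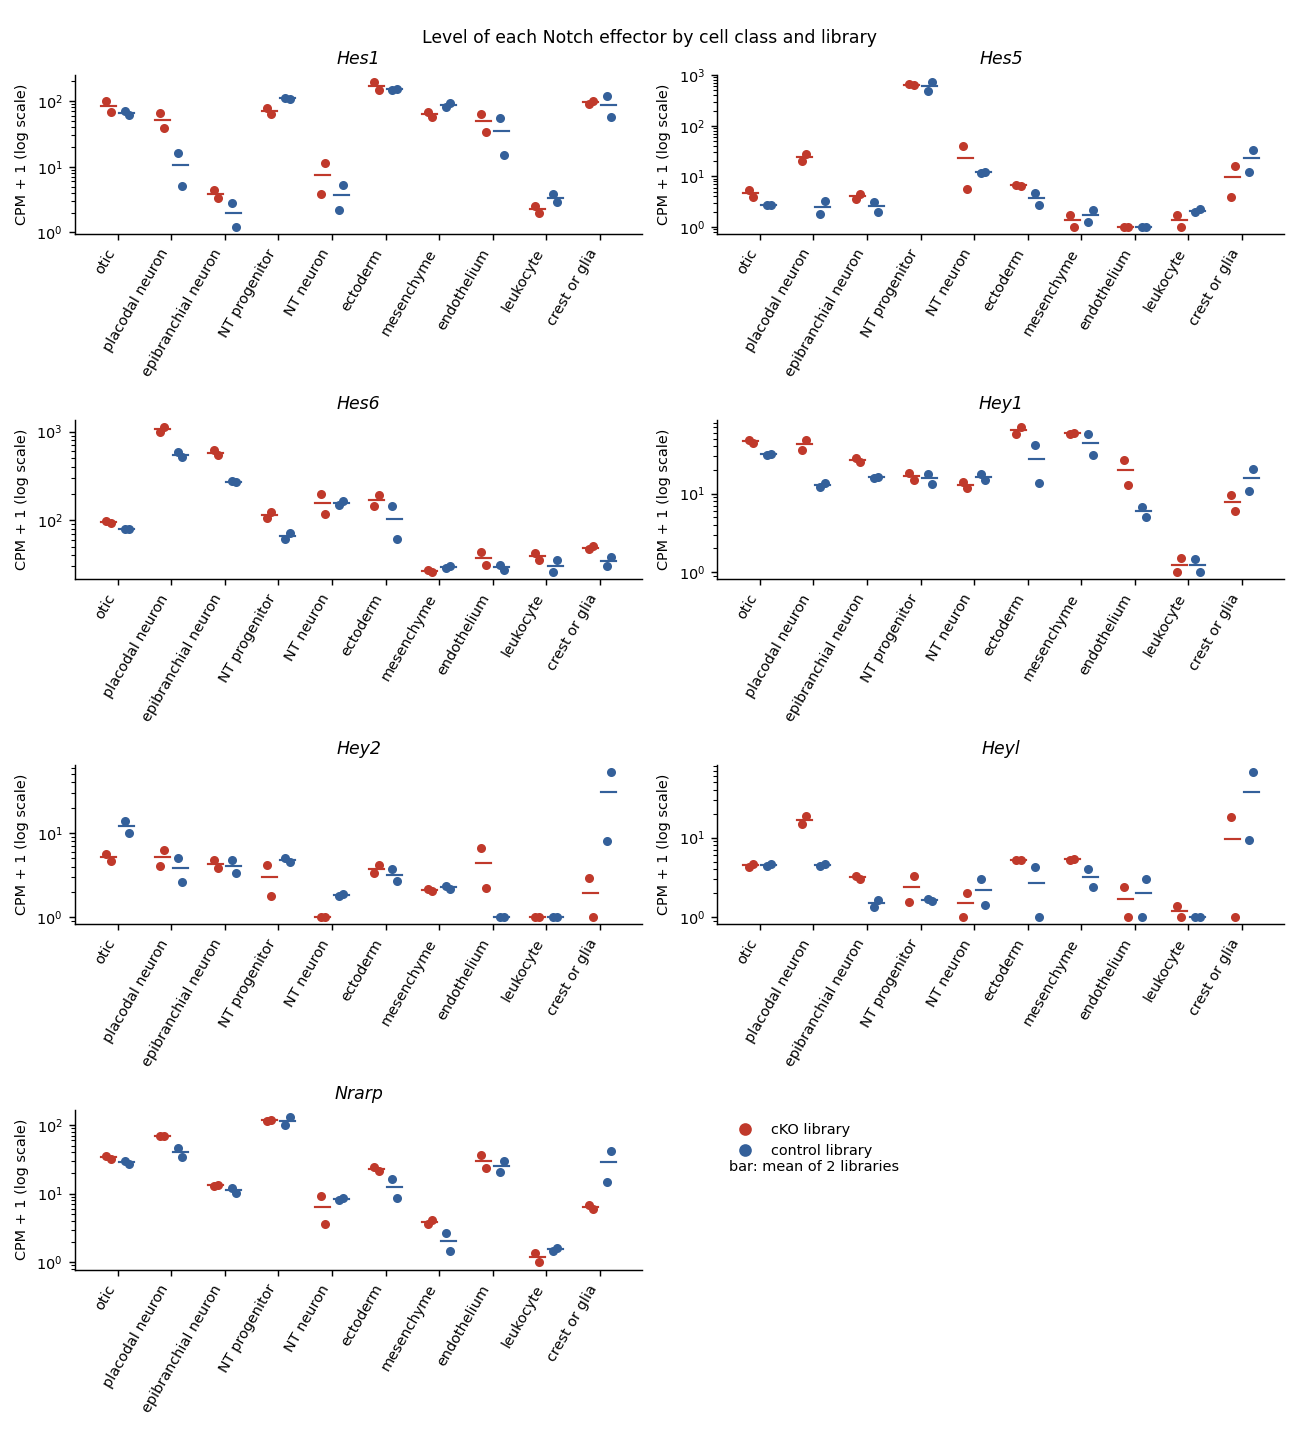
Level of each effector in 10 cell classes, as CPM + 1 on a log axis; each point is a library and each bar the mean of 2 libraries, cKO in red and control in blue (NT, neural tube). Hes5 stands at 491 to 739 CPM in neural tube progenitors of all 4 libraries and at 39.5 CPM or less in every other class, and Hes6 is highest in placodal neurons.

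Hes5 belonged to the neural tube progenitors. It had 672 and 628 CPM there in the cKO libraries, against 491 and 739 CPM in the control libraries, and a Hes5 UMI was found in 84.6% and 83.3% of cKO cells, against 75.0% and 85.9% of control cells, after each cell was thinned to 10000 UMIs. In control libraries the next classes, crest or glia-like cells (11.1 and 32.6 CPM) and neural tube neurons (10.7 and 11.1 CPM), were far below and did not overlap the progenitors. Endothelium-like cells had 0 Hes5 UMIs in all 4 libraries, in 37 and 34 cKO cells and 35 and 18 control cells. A count of 0 allows a share of up to 8.11% and 8.82% of cKO cells and up to 8.57% and 16.7% of control cells, by counting error alone.

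Hes1, the broadly used repressor, was spread over epithelia, progenitors and mesenchyme. It was highest in surface ectoderm, at 196 and 145 CPM in cKO and 147 and 152 CPM in control libraries. In control libraries neural tube progenitors followed at 112 and 108 CPM, then mesenchyme at 81.6 and 93.4 CPM, crest or glia-like cells at 118 and 56.1 CPM and otic cells at 68.8 and 60.9 CPM. Mesenchyme overlapped crest or glia-like cells in that order, and these overlapped otic cells, so their places are not separated by the 2 libraries. Epibranchial neurons had 3.38 and 2.37 CPM in cKO and 1.79 and 0.213 CPM in control libraries. Leukocytes had 1.496 and 0.982 CPM in cKO, from 4 and 2 UMIs, and 2.83 and 1.87 CPM in control libraries, so epibranchial Hes1 lay above leukocytes in cKO and below them in control libraries.

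Hes6 followed the neurons. Placodal sensory neurons, which comprise otic neuroblasts and the cochleovestibular ganglion lineage, had 998 and 1127 CPM in cKO and 582 and 511 CPM in control libraries, and epibranchial neurons had 615 and 542 CPM in cKO and 273 and 266 CPM in control libraries. Neural tube neurons were next in control libraries, with 146 and 166 CPM. None of these 3 overlapped the next class in control. Leukocytes still had 41.1 and 34.9 CPM in cKO, from 110 and 71 UMIs, and 24.97 and 34.4 CPM in control libraries, from 53 and 55 UMIs. Mesenchyme and endothelium, at 25.01 to 42.4 CPM in all libraries, were close to leukocytes in Hes6. The part of free RNA in these values was not tested.

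Hey1, a HEY repressor found in many Notch-active tissues, had its highest control mean in mesenchyme (56.5 and 30.0 CPM), followed by otic cells (30.3 and 31.0 CPM) and surface ectoderm (40.8 and 12.6 CPM). These 3 overlapped each other in turn. In cKO libraries ectoderm led with 57.3 and 69.8 CPM, over mesenchyme with 56.5 and 58.6 CPM and otic cells with 47.7 and 43.7 CPM, and ectoderm overlapped mesenchyme. Leukocytes had 0.491 CPM or less in every library.

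Hey2 and Heyl were low genes, and both had their highest control mean in crest or glia-like cells. Hey2 had 1.93 and 0 CPM in these cells of cKO libraries, against 6.95 and 52.1 CPM in control libraries. Heyl had 17.3 and 0 CPM in cKO and 8.33 and 65.9 CPM in control libraries. The spread within a genotype was as wide as that between genotypes, and the class held only 46 and 12 cKO cells and 31 and 81 control cells; its leading genes also included Ttr, Rspo1 and Otx2, which are not crest markers. Otic cells were second for Hey2 in control libraries, at 12.97 and 9.12 CPM, and overlapped no lower class.

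Nrarp was highest in neural tube progenitors, at 115 and 118 CPM in cKO and 98.0 and 129 CPM in control libraries. Placodal sensory neurons came second, at 68.9 and 68.1 CPM in cKO and 45.3 and 33.6 CPM in control libraries, and otic cells had 34.5 and 31.2 CPM in cKO and 29.3 and 25.8 CPM in control libraries. In control libraries otic cells overlapped crest or glia-like cells (13.9 and 41.3 CPM), and in cKO libraries endothelium (35.3 and 22.8 CPM), so the third place is not separated. Nrarp was near 0 in mesenchyme, with 3.08 CPM or less.

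Endothelium is a tissue in which Hey1, Hey2 and Heyl are well-known Notch targets. The endothelium-like cluster carried all 12 of its 12 markers, but it held only 37 and 34 cKO cells and 35 and 18 control cells, so it was not tested. Hes1 had 63.6 and 32.3 CPM in cKO and 54.5 and 14.3 CPM in control libraries. Nrarp had 35.3 and 22.8 CPM in cKO and 19.7 and 28.5 CPM in control libraries. The genotypes overlapped for both genes. Hey1 had 25.4 and 11.98 CPM in cKO libraries, from 18 and 10 UMIs, and 5.79 and 4.08 CPM in control libraries, from 5 and 2 UMIs. These values did not overlap, but they rest on 5 and 2 cKO cells and 5 and 2 control cells with a UMI. Hey2 had 4 and 1 UMIs in cKO and 0 in both control libraries, and Heyl had 1 and 0 UMIs in cKO and 0 and 1 in control libraries.

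Genes whose level followed a member most closely over 20 clusters of control cells were found by Pearson's r of log2(CPM + 1), screened over 11673 genes. These r values describe clusters that come from the same 2 libraries, and the best of many genes is always high. Closest to Hes5 was Rfx4 (r = 0.954), a neural tube transcription factor, and closest to Hes6 was the neuronal differentiation factor Neurod1 (0.926), followed by Eya2 (0.907). Hes1 lay closest to Six5 (0.931), Hey1 to Poglut1 (0.924), an enzyme that attaches glucose to Notch receptors, Hey2 to Mstn (0.882), Heyl also to Mstn (0.788) and Nrarp to Gemin8 (0.787). For Nrarp, Tmem47 (0.782) came next, and then the progenitor genes Sox21 (0.767) and Sox2 (0.761).

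In otic cells, Hey2 was lower and 5 members were higher in the cKO. Counts were summed per library over 1169 and 2060 cKO cells and 2222 and 1889 control cells and tested with edgeR's quasi-likelihood test, with p-values adjusted by Benjamini-Hochberg over all 15426 genes tested. All 7 members passed the filter on low counts. In this comparison 40.5% of all genes passed an adjusted p of 0.05 (20.9% higher and 19.6% lower in cKO), so a count of 5 higher and 1 lower among 7 members is to be read against a high background. Each log2 change below sets cKO over control after TMM scaling and is given with its standard error (SE), so it can differ slightly from the ratio of the CPM.

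Hey2, a HEY repressor, had 4.69 and 3.66 CPM in cKO otic cells, against 12.97 and 9.12 CPM in control otic cells. Both cKO libraries lay below both control libraries (log2 change -1.26, SE 0.20, edgeR adjusted p = 0.00185). After thinning, 4.17% and 3.52% of cKO cells had a Hey2 UMI, against 10.7% and 7.45% of control cells.

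Hey1 went the other way, with 47.7 and 43.7 CPM in cKO, against 30.3 and 31.0 CPM in control libraries. The groups were well apart (log2 change 0.74, SE 0.07, edgeR adjusted p = 0.000273). A Hey1 UMI was found in 35.5% and 32.4% of cKO cells, against 24.7% and 23.4% of control cells.

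Hes6 had 98.0 and 91.1 CPM in cKO, against 78.6 and 79.5 CPM in control libraries (log2 change 0.43, SE 0.07, edgeR adjusted p = 0.00253). Nrarp had 34.5 and 31.2 CPM in cKO, against 29.3 and 25.8 CPM in control libraries (0.42, SE 0.10, edgeR adjusted p = 0.00959). Neither gene overlapped between genotypes. At the finer clustering, resolution 2, the changes were 1.05 for Hes6 and 0.76 for Nrarp. The otic class held fewer cells there, 675 and 1289 in cKO and 1774 and 1597 in control libraries. Several clusters that held nearly all cells of a single genotype stayed unnamed, so these changes come from a different set of cells. The Nrarp call was lost without control 2 (edgeR adjusted p = 0.0515).

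Hes1 had 98.0 and 68.2 CPM in cKO, against 68.8 and 60.9 CPM in control libraries. The cKO 2 library lay just under control 1, so the groups overlapped, and the higher mean came mostly from cKO 1. The log2 change was 0.52 (SE 0.16, edgeR adjusted p = 0.0275), and the call was lost without cKO 1 (0.24, edgeR adjusted p = 0.0694), without control 2 (0.42, edgeR adjusted p = 0.137) and with DESeq2 (adjusted p = 0.142).

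Hes5 rose at a very low level, to 4.35 and 2.85 CPM in cKO, against 1.67 and 1.77 CPM in control otic cells (log2 change 1.21, SE 0.22, edgeR adjusted p = 0.0036). By CPM it lay above leukocytes in all 4 libraries, which had 0.748 and 0 CPM in cKO, from 2 and 0 UMIs, and 0.942 and 1.25 CPM in control libraries, from 2 and 2 UMIs. Its share of cells with a UMI, 3.17% and 2.32% in cKO and 1.70% and 1.70% in control libraries after thinning, lay within the leukocyte shares of 3.77% and 0% in cKO and 0% and 2.50% in control libraries. The leukocyte values rest on few cells, and the part of free RNA in otic Hes5 was not tested. Heyl had 3.30 and 3.73 CPM in cKO and 3.42 and 3.67 CPM in control libraries, which overlapped (log2 change 0.16, SE 0.14, edgeR adjusted p = 0.364). It was called higher at resolution 2, with its smaller otic class (edgeR adjusted p = 0.0151), and under no other setting.

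**Figure D2:**
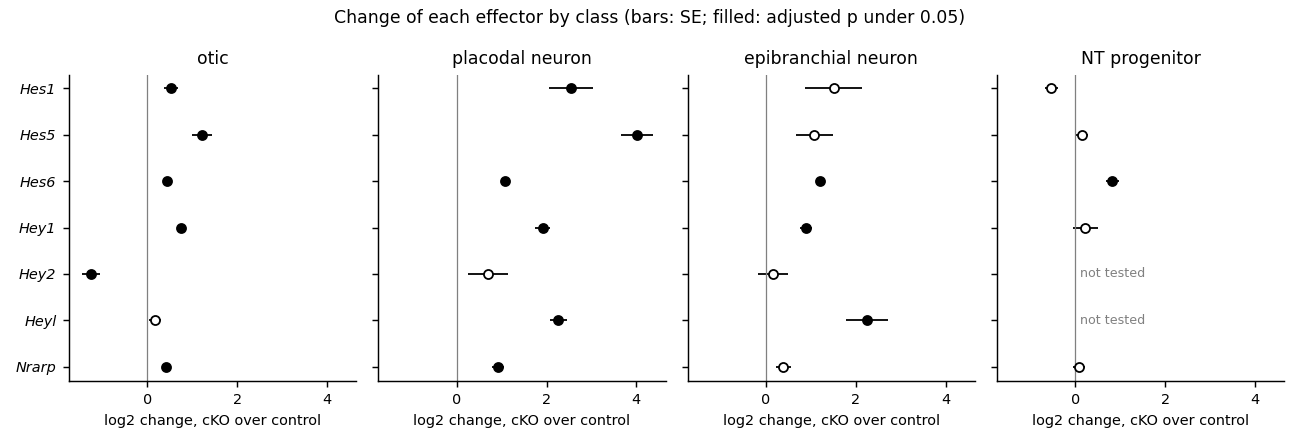
Log2 change of each effector, cKO over control, in 4 classes, with SE bars; filled points had an edgeR adjusted p under 0.05 and genes under the filter on low counts are marked as not tested. Hey2 is the one member with a filled point left of 0, at -1.26 in otic cells, and the changes in placodal neurons reach 4.01 for Hes5.

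The otic class was not made of the same clusters in both genotypes. Clusters 0, 1 and 19 held nearly all cKO otic cells and clusters 2, 5, 6, 8, 12 and 14 those of the control, so no otic cluster held 20 cells of every library and the class values combine differences in territory and in level. Described over clusters, with both libraries of a genotype summed, the 3 cKO clusters ranged from 1.47 to 4.86 CPM for Hey2 and the 6 control clusters from 1.83 to 22.7 CPM. The highest were control cluster 6 (22.7 CPM, 95% Poisson interval 20.7 to 24.8) and cluster 2 (15.0, 13.8 to 16.3). No cKO otic cluster had more than 1.30 CPM of Otx2, a marker of ventral otic epithelium, which control cluster 6 carried at 53.0 CPM. Control cluster 5, with Otx2 at 43.1 CPM, had 8.24 CPM of Hey2. These Poisson intervals cover counting error only.

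**Figure D3:**
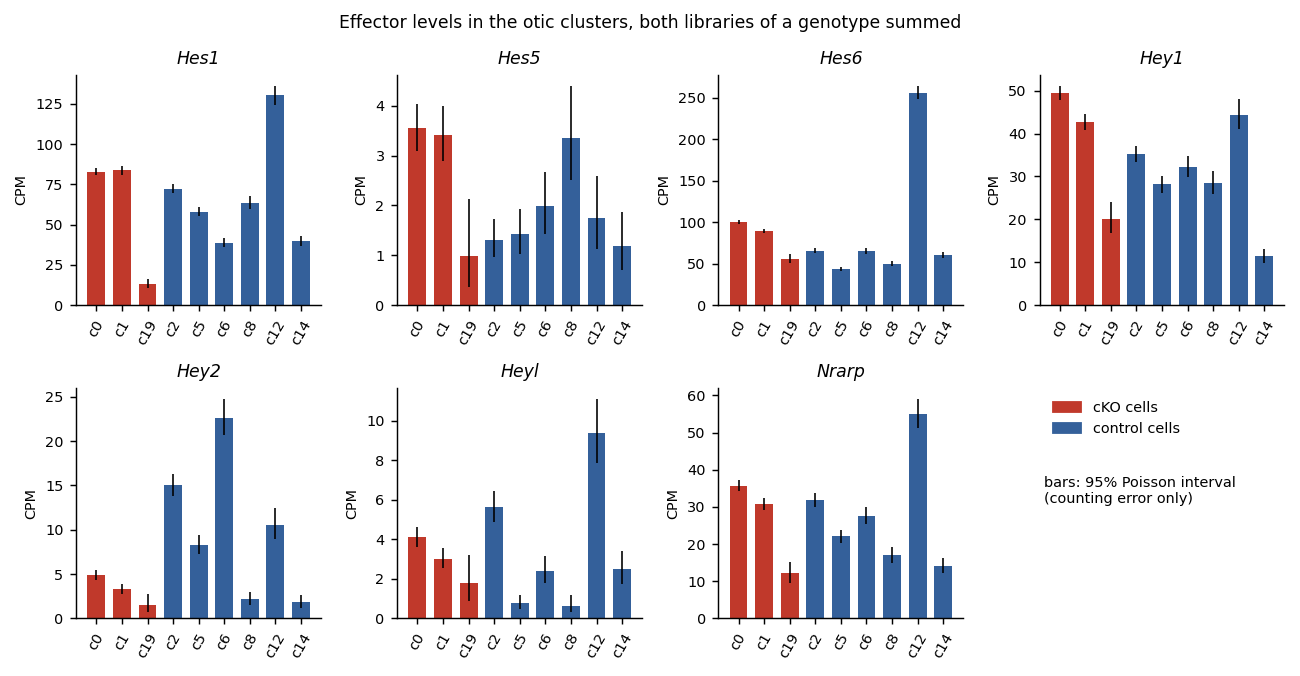
CPM of each effector in the 3 otic clusters of cKO cells (red) and the 6 of control cells (blue), with 95% Poisson intervals that cover counting error only. The Hey2 bars of the cKO clusters stay at 4.86 CPM or less, while control cluster 6 has the most Hey2 and control cluster 12 the most Hes1, Hes6, Heyl and Nrarp.

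The otic clusters also differed in how much Hes1, Hes6, Nrarp and Heyl their highest member held. Over the cKO clusters the highest levels were 83.7 CPM for Hes1, 100.5 CPM for Hes6, 35.7 CPM for Nrarp and 4.11 CPM for Heyl. In the control all 4 genes were highest in cluster 12, at 130 CPM (interval 124 to 136) for Hes1, 256 CPM (248 to 265) for Hes6, 55.1 CPM (51.3 to 59.1) for Nrarp and 9.38 CPM (7.86 to 11.1) for Heyl. Neurog1, which starts neurogenesis, was at 20.7, 16.2 and 0.490 CPM in cKO clusters 0, 1 and 19, and at 78.6 CPM in control cluster 12. Hey1 differed less, at 49.4 CPM in cKO cluster 0 and 44.4 CPM in control cluster 12. Cluster 12 had Neurod1 among its leading genes, and some of its cells may be early neuroblasts. The line between otic cells and neurons fell differently in the 2 genotypes, as given below, so these highest values may not compare like cells.

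At the other end, the cluster of each genotype with the most Gbx2, a gene of dorsal otic epithelium, was low in several effectors. The cKO cluster 19 (Gbx2 at 89.2 CPM) had 13.1 CPM of Hes1, 20.1 CPM of Hey1 and 12.1 CPM of Nrarp. The control cluster 14 (Gbx2 at 152 CPM) had 39.6 CPM of Hes1, 11.3 CPM of Hey1 and 14.1 CPM of Nrarp. Both clusters were the lowest or next to the lowest of their genotype for these 3 genes. Gbx2 did not go with low effectors throughout, since control cluster 2, with Gbx2 at 57.3 CPM, had 72.2 CPM of Hes1 and 35.2 CPM of Hey1.

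The effectors were also set against Dll1, the ligand shown by cells that are becoming neurons, within otic cells thinned to 10000 UMIs. In cells with a Dll1 UMI, Hes6 was found in 72.7% and 64.6% of cKO cells and 74.7% and 78.3% of control cells. In cells without one it was found in 48.4% and 50.5% of cKO cells and 41.9% and 42.2% of control cells. Hes6 was thus more frequent in Dll1-positive cells of all 4 libraries.

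**Figure D4:**
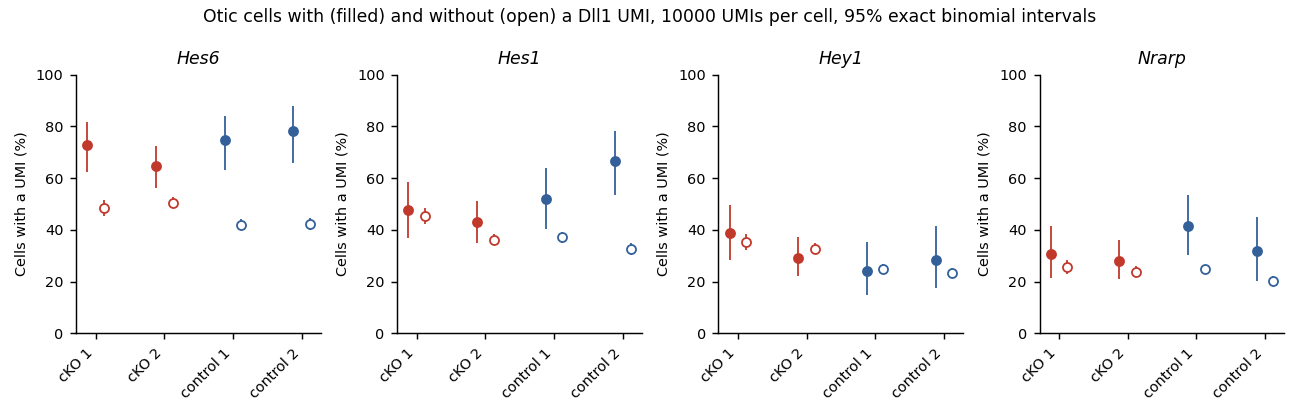
Share of otic cells with a UMI of Hes6, Hes1, Hey1 and Nrarp among cells with (filled) and without (open) a Dll1 UMI, per library and with exact 95% binomial intervals, after thinning to 10000 UMIs. For Hes1 the filled points of the cKO libraries (47.7% and 42.9%) lie close to the open ones, and those of the control libraries (52.0% and 66.7%) lie above them.

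Hes1, although it represses proneural genes, was found in 47.7% and 42.9% of Dll1-positive cKO cells and in 52.0% and 66.7% of Dll1-positive control cells. Of Dll1-negative cells, 45.4% and 36.1% in the cKO and 37.0% and 32.6% in the control had a Hes1 UMI. Nrarp was likewise found in 30.7% and 27.9% of Dll1-positive cKO cells and in 41.3% and 31.7% of Dll1-positive control cells. Of Dll1-negative cells, 25.5% and 23.9% in the cKO and 24.7% and 20.1% in the control had a Nrarp UMI. Hey1 gave 38.6% and 29.3% of Dll1-positive and 35.3% and 32.7% of Dll1-negative cKO cells, and 24.0% and 28.3% of Dll1-positive and 24.7% and 23.2% of Dll1-negative control cells. The number of Dll1-positive cells was 88 and 147 in cKO and 75 and 60 in control libraries, and no test was made over cells.

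In placodal sensory neurons, 6 of 7 members were higher in the cKO and none was lower. All 7 passed the filter on low counts. In this comparison 37% of 12765 genes passed the threshold (18.1% higher and 18.9% lower in cKO). The class held 293 and 354 cKO cells and 567 and 674 control cells. At resolution 2 it held 294 and 352 cKO cells and 627 and 725 control cells. Cluster 26 of that clustering, of early neurons, held 61 and 50 of these control cells. The line between neurons and otic cells thus fell differently in the 2 genotypes. Early control neuroblasts may be counted as otic at resolution 1, where cKO ones are neurons, and this was not followed cell by cell.

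Hes5 changed most. It had 18.9 and 27.3 CPM in cKO neurons, against 0.785 and 2.20 CPM in control neurons. Both cKO libraries were far above both control libraries (log2 change 4.01, SE 0.35, edgeR adjusted p = 0.000289). The Hes5 change was 4.99 without control 2 and 3.35 with no doublets removed. A Hes5 UMI was found in 7.77% and 10.1% of thinned cKO neurons, with lower 95% bounds of 4.94% and 7.13%, against 0.730% and 1.98% of control neurons. Without thinning the shares were 18.8% and 18.4% of cKO and 2.12% and 3.41% of control neurons, and those of leukocytes 3.70% and 0% in cKO and 4.08% and 2.50% in control libraries. The median depth was 35505 and 31933.5 UMIs in cKO neurons and 25163 and 25646 in control neurons, and between 37911 and 51386.5 in leukocytes of the 4 libraries. By CPM and by unthinned share, control neurons overlapped leukocytes. The lower bounds of both cKO shares lie above the highest leukocyte share of 3.77% after thinning, although that share, from few cells, has an upper bound of 12.98%.

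Neural tube progenitors, the class rich in Hes5, made up 8.17% and 2.15% of the cKO libraries and 1.76% and 2.34% of the control libraries, whereas Hes5 in neurons was higher in cKO 2 than in cKO 1. Of 10 progenitor markers, 9 and 7 had a UMI in cKO neurons and 7 and 10 in control neurons, with summed levels of 97.6 and 103 CPM in cKO and 21.2 and 42.4 CPM in control libraries. Most of the cKO sum was Irx3 (80.6 and 95.9 CPM in cKO, 12.8 and 9.59 CPM in control), which otic cells carry as well, at 88.2 and 108 CPM in cKO and 133 and 139 CPM in control libraries. Fabp7, the progenitor marker with the highest level, had 10.8 and 6.16 CPM in cKO neurons and 7.52 and 26.8 CPM in control neurons, and Rfx4 had 1.31 and 0.338 CPM in cKO and 0.131 and 0.275 CPM in control neurons. In progenitors themselves Fabp7 had 616 and 935 CPM in cKO and 977 and 1484 CPM in control libraries. The part of progenitor RNA in the Hes5 difference was not tested.

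Heyl, another HEY repressor, had 13.8 and 17.9 CPM in cKO neurons, against 3.47 and 3.69 CPM in control neurons (log2 change 2.26, SE 0.19, edgeR adjusted p = 0.000247). Hey1 had 35.4 and 47.6 CPM in cKO, against 11.2 and 12.7 CPM in control neurons (1.91, SE 0.16, edgeR adjusted p = 0.000256). Both genes were clearly apart between genotypes. Hey2 had 3.09 and 5.23 CPM in cKO and 4.12 and 1.60 CPM in control neurons, which overlapped (log2 change 0.69, SE 0.44, edgeR adjusted p = 0.252).

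Hes1 had 64.8 and 38.0 CPM in cKO, against 15.4 and 4.13 CPM in control neurons. The libraries of each genotype differed among themselves, but both cKO values were above both control values (log2 change 2.55, SE 0.48, edgeR adjusted p = 0.0058). The size of the Hes1 change depended on the cells taken: it was 3.74 without control 1, 1.87 without control 2, 1.53 with no doublets removed and 1.67 to 1.71 at resolution 0.5, resolution 2 and the stricter cell filter. Hes6 had 998 and 1127 CPM in cKO, against 582 and 511 CPM in control neurons (1.08, SE 0.09, edgeR adjusted p = 0.000201). Nrarp had 68.9 and 68.1 CPM in cKO, against 45.3 and 33.6 CPM in control neurons (0.91, SE 0.14, edgeR adjusted p = 0.00222). Both were apart between genotypes, by less than Hes5, Heyl and Hes1.

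Within cKO neurons, the cells with a Hes5 UMI were also those in which the HEY genes were most often found. Among 22 and 35 Hes5-positive cells of cKO 1 and cKO 2, Hey1 was found in 54.5% and 62.9% and Heyl in 27.3% and 42.9%. Among 261 and 312 Hes5-negative cells, Hey1 was found in 25.7% and 28.5% and Heyl in 11.1% and 10.9%. Hes1 was found in 54.5% and 42.9% of Hes5-positive and in 23.4% and 20.2% of Hes5-negative cells. These cells of 2 libraries are no replicates, and no test was made.

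The neuron class, too, differed in its clusters. Cluster 10 held 552 cKO neurons and 13 control neurons, while clusters 3 and 15 held 73 and 22 cKO neurons and 829 and 399 control neurons. Neurog1, an early neuroblast gene, had 190 and 180 CPM in cKO and 39.0 and 50.0 CPM in control neurons, so this stage marker moved with genotype across the class. Tests were therefore repeated within clusters that held at least 20 cells of every library, including clusters found at a finer and a coarser resolution, an alternative chosen after seeing the data. Neurog1 was still higher in cKO within clusters 26 and 12 of the finer clustering (log2 change 0.69 and 0.87, edgeR adjusted p = 0.000794 and 0.022) and within cluster 4 of the coarser one.

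**Figure D5:**
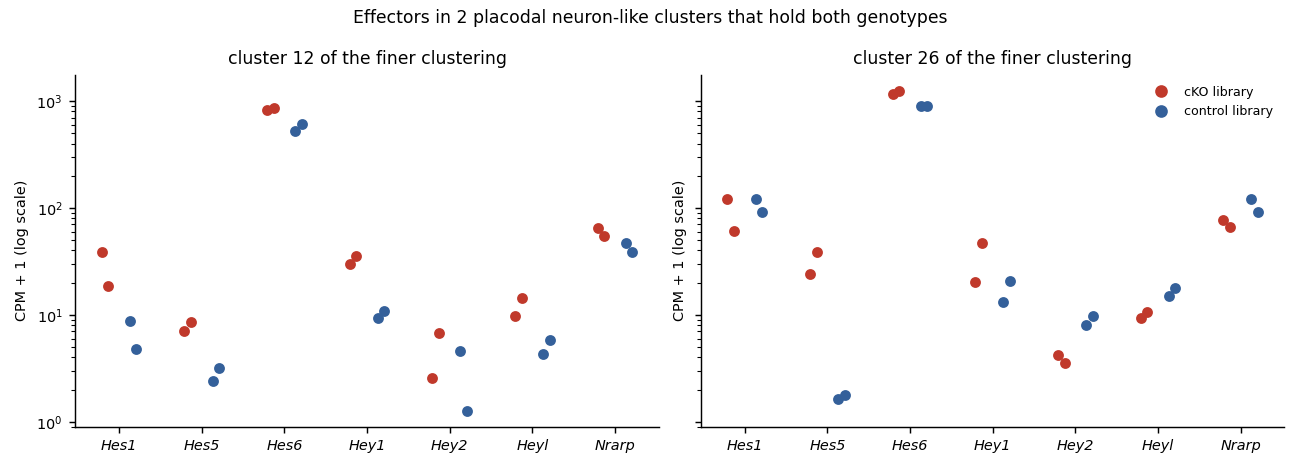
CPM + 1 on a log axis for the 7 effectors in 2 placodal neuron-like clusters of the finer clustering that hold both genotypes; each point is a library, cKO in red and control in blue. In cluster 26, which has the higher Neurog1, Hes5 is at 23.1 and 37.5 CPM in cKO and 0.639 and 0.793 CPM in control, while Nrarp, Heyl and Hey2 lie lower in cKO.

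Cluster 26 of the finer clustering was the early one, with Neurog1 at 349 and 339 CPM in cKO and 220 and 222 CPM in control libraries, in 65 and 87 cKO cells and 61 and 50 control cells. Here 12% of 9127 genes passed (6.38% higher, 5.61% lower), and among 7 members 3 were higher and 1 lower. Hes5 had 23.1 and 37.5 CPM in cKO, against 0.639 and 0.793 CPM in control libraries (log2 change 5.37, SE 0.56, edgeR adjusted p = 1.71e-06). The control values come from 1 UMI per library, so the size of this change is loosely known; it was between 4.97 and 5.62 whichever library was left out.

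Nrarp fell in this cluster, to 75.6 and 66.0 CPM in cKO, against 119 and 90.4 CPM in control libraries (log2 change -0.53, SE 0.16, edgeR adjusted p = 0.0399), a direction opposite to that of the neuron class. The call was lost without cKO 2 (-0.39, edgeR adjusted p = 0.271) and without control 1 (-0.27, edgeR adjusted p = 0.387). Hes1, which was higher in the neuron class, had 119 and 59.5 CPM in cKO and 121 and 90.4 CPM in control libraries here, and overlapped (log2 change -0.22, SE 0.23, edgeR adjusted p = 0.594). The class at resolution 1 may leave out many control cells of this cluster. It held 567 and 674 control cells, against 627 and 725 at resolution 2, where the class holds the cluster. Both genes were higher in cKO in the class at resolution 2 too. The smallest class change under any setting was 0.72 for Nrarp and 1.53 for Hes1. Heyl had 8.30 and 9.74 CPM in cKO and 14.05 and 16.6 CPM in control libraries, which did not overlap but missed the threshold (log2 change -0.69, SE 0.34, edgeR adjusted p = 0.194).

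Hes6 rose in cluster 26 to 1166.5 and 1250.0 CPM in cKO, against 896 and 898 CPM in control libraries (log2 change 0.48, SE 0.11, edgeR adjusted p = 0.00484). Hey1 had 19.4 and 45.8 CPM in cKO, against 12.1 and 19.8 CPM in control libraries. The cKO 1 value lay under that of control 2, so the groups overlapped (log2 change 1.14, SE 0.34, edgeR adjusted p = 0.0338), and the call was lost without cKO 2 (0.39, edgeR adjusted p = 0.591) and without control 1 (0.84, edgeR adjusted p = 0.178).

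Cluster 12 of the finer clustering, of later neurons, had Neurog1 at 112 and 78.6 CPM in cKO and 39.6 and 70.2 CPM in control libraries, in 106 and 81 cKO cells and 120 and 132 control cells. Here 8.9% of 10304 genes passed (4.52% higher, 4.38% lower), and 6 of 7 members were higher in cKO. Hes1 had 38.0 and 17.6 CPM in cKO, against 7.81 and 3.78 CPM in control libraries (log2 change 2.37, SE 0.37, edgeR adjusted p = 0.000926). Hey1 had 28.7 and 34.3 CPM in cKO, against 8.37 and 9.99 CPM in control libraries (1.82, SE 0.22, edgeR adjusted p = 7.61e-05). The groups were apart for both genes.

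Hes5 in cluster 12 had 6.11 and 7.63 CPM in cKO, against 1.39 and 2.16 CPM in control libraries (log2 change 1.97, SE 0.44, edgeR adjusted p = 0.0116). Heyl, Hes6 and Nrarp rose by 1.45, 0.63 and 0.56 on the log2 scale (edgeR adjusted p = 0.0197, 0.00144 and 0.0315). With cKO 1 or cKO 2 left out, only 2 and 1 genes were called in all and no member was among them. Without cKO 1 and without cKO 2 the changes were 1.93 and 1.73 for Hey1, 2.11 and 1.85 for Hes5, 1.63 and 2.81 for Hes1 and 0.62 and 0.65 for Hes6. Without control 1, 2 members were called, Hey1 and Hes1 (2.96), and without control 2, 5 were, with Nrarp lost (edgeR adjusted p = 0.18). In cluster 3, of late neurons with 42 and 31 cKO cells and 331 and 498 control cells, 0 of 6 tested members passed by edgeR, where 2.77% of genes did (1.33% higher, 1.45% lower), and 0 by DESeq2, which gave no adjusted p for 4 of the members. Hes1 had 0.795 and 4.86 CPM in cKO and 5.03 and 1.02 CPM in control libraries there, which overlapped. Hey1 had 20.7 and 29.2 CPM in cKO, against 12.6 and 13.3 CPM in control libraries, which did not overlap but missed the threshold (log2 change 0.95, SE 0.25, edgeR adjusted p = 0.0769). Hes6, at 444 and 527 CPM in cKO and 391.5 and 419 CPM in control libraries, did not overlap either (0.31, SE 0.11, edgeR adjusted p = 0.166). Both passed with the replicate block, and Hey1 also without the filter on low counts. Replicate numbers did not pair the libraries of the neuron class, however (r = -0.0742).

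The whole neuroblast cluster of the coarser clustering, cluster 4, held 269 and 330 cKO cells and 397 and 352 control cells. In it 30.4% of genes passed (15.8% higher, 14.6% lower) and 6 members were higher, with log2 changes of 4.20 for Hes5, 2.10 for Hey1, 1.43 for Heyl, 1.09 for Hes1, 0.70 for Hes6 and 0.42 for Nrarp. Neurog1 had 199 and 184 CPM in cKO, against 76.6 and 91.3 CPM in control libraries of this cluster (log2 change 1.28, SE 0.10, edgeR adjusted p = 2.27e-05). The Hes1 call was lost with DESeq2 (adjusted p = 0.211) and the Nrarp call without control 2 (edgeR adjusted p = 0.104). Without control 1 and without control 2 the Hes5 change was 3.61 and 5.07.

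The difference between the otic and the neuron response was itself tested, as an interaction of genotype with class in a fit that kept each library as a block. The log2 change, taken with its sign, was lower in otic cells than in neurons for all 7 members, and each passed, where 18.3% of 15199 genes did (9.42% with the lower otic change). The difference was -2.89 (SE 0.46, edgeR adjusted p = 0.00148) for Hes5, -2.13 (SE 0.20, edgeR adjusted p = 5.84e-05) for Heyl and -2.09 (SE 0.32, edgeR adjusted p = 0.00123) for Hes1. It was -2.01 for Hey2, -1.20 for Hey1, -0.68 for Hes6 and -0.54 for Nrarp. At the finer resolution the Hes6 and Nrarp differences were -0.02 and -0.04 (edgeR adjusted p = 0.93 and 0.877), and those of Hes1 and Heyl -0.88 and -1.32. The otic class held fewer cells at that resolution, as given above. The Hes1 difference was also -1.05 with no doublets removed, -1.16 at resolution 0.5, -1.32 with the stricter cell filter, -3.10 without control 1 and -1.44 without control 2. The Hes5 difference was -3.81 without control 2 and -2.30 without cKO 2 or with no doublets removed. For Hey2 this sets a fall in otic cells beside a change in neurons that missed the threshold. The classes hold different clusters in each genotype, and the line between them fell differently, as given above. The part of stage, territory and this line in these differences was not tested.

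In neural tube progenitors, cluster 13, 1 of 5 tested members was called. Of all 8956 genes 1.44% passed (0.681% higher and 0.759% lower in cKO), the filter on low counts removed Hey2 and Heyl, and the class held 263 and 80 cKO cells and 68 and 84 control cells. Neurog1 had 15.7 and 8.43 CPM in cKO and 0 and 3.52 CPM in control libraries of the class (log2 change 2.87, SE 0.66, edgeR adjusted p = 0.0528). The 10 progenitor markers summed to 1441 and 1970 CPM in cKO, against 2061 and 2682 CPM in control libraries. The part of stage in the changes below was not tested. The called member was Hes6, with 106 and 123 CPM in cKO, against 60.8 and 70.4 CPM in control libraries. The groups were apart (log2 change 0.82, SE 0.14, edgeR adjusted p = 0.0142), but the call was lost without control 1 (edgeR adjusted p = 0.0969) or control 2 (edgeR adjusted p = 0.1252).

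Hes5, the main effector there, did not pass (log2 change 0.14, SE 0.14, edgeR adjusted p = 0.698), nor did Nrarp (0.08, SE 0.14, edgeR adjusted p = 0.817). For both genes the 2 cKO values lay between the 2 control values. Hes1 had 78.9 and 62.8 CPM in cKO and 112 and 108 CPM in control libraries, which did not overlap, yet it missed the threshold (log2 change -0.54, SE 0.14, edgeR adjusted p = 0.0945). It passed without the filter on low counts, without cKO 1 and with the replicate block (edgeR adjusted p = 0.0119 in that last fit). Replicate numbers did not pair the libraries of this class, however (r = -0.030). The otic response exceeded the progenitor response for Hes1 by 1.06 (SE 0.15, edgeR adjusted p = 7.04e-10) and for Hes5 by 0.96 (SE 0.15, edgeR adjusted p = 9.08e-09). Here 3.88% of genes passed (1.94% with the larger and 1.95% with the smaller otic change), and the other 5 members did not. In this fit each p-value followed from change over SE as in a normal distribution. The spread was thus taken almost wholly from all genes together. These p-values therefore do not measure how Hes1 and Hes5 themselves vary between libraries.

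Epibranchial neurons, a placodal lineage that does not form the cochleovestibular ganglion, had 3 of 7 members higher in the cKO, where 23.9% of 12812 genes passed (11.5% higher). Hes6 rose to 615 and 542 CPM in cKO, against 273 and 266 CPM in control libraries (log2 change 1.21, SE 0.10, edgeR adjusted p = 0.000949). Hey1 had 27.5 and 24.5 CPM in cKO, against 14.8 and 15.4 CPM in control libraries (0.89, SE 0.13, edgeR adjusted p = 0.00544). Heyl had 2.34 and 2.00 CPM in cKO, against 0.341 and 0.640 CPM in control libraries (2.25, SE 0.47, edgeR adjusted p = 0.0131). The groups were apart for these 3 genes. Without control 1 and without control 2 the changes were 0.86 and 0.92 for Hey1 (edgeR adjusted p = 0.0705 and 0.0754) and 1.83 and 2.73 for Heyl (edgeR adjusted p = 0.15 and 0.0927), where 213 and 103 genes were called in all, against 3063. Heyl was not called with DESeq2 either (2.29, adjusted p = 0.0666). The class, too, was made up differently: cluster 9 held 67.4% of its cKO cells and 36.5% of its control cells, and cluster 11 held 32.6% of its cKO cells and 63.5% of its control cells. Neurog1 had 133 and 89.5 CPM in cKO, against 33.3 and 29.0 CPM in control libraries of the class. The part of these clusters in the differences was not tested.

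In surface ectoderm 0 of 7 members passed by edgeR, with 4 at an unadjusted p under 0.05 and 0 by DESeq2, where 4.35% of genes passed (2.16% higher, 2.18% lower). Hey1 had 57.3 and 69.8 CPM in cKO and 40.8 and 12.6 CPM in control libraries (log2 change 1.02, SE 0.29, edgeR adjusted p = 0.0804), with only 54 cells behind the lower control value. None of the 5 tested members passed in mesenchyme (5.83% of genes passed, 3.08% higher and 2.75% lower; 4 members had an unadjusted p under 0.05) or in neural tube neurons (1.41%, 0.58% higher and 0.828% lower; 0 members), nor did Hes6, the 1 tested member, in leukocytes (3.03%, 1.26% higher and 1.76% lower; 0 members). DESeq2 called 0 members in these 3 classes as well. Crest or glia-like cells were too few to test.

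Of the 51 other genes on a Notch pathway list, 45 were tested in otic cells, of which 14 were higher and 14 lower in the cKO. The higher count was 8 without any one of cKO 1, control 1 and control 2. Their median log2 change was 0.04, beside -0.02 for all genes. The ligand Dll1 had 10.2 and 9.83 CPM in cKO, against 4.26 and 3.84 CPM in control libraries (log2 change 1.47, SE 0.11, edgeR adjusted p = 7.49e-05). Dlk1, a non-canonical Notch ligand, had 12.4 and 14.2 CPM in cKO, against 6.55 and 7.05 CPM in control libraries (1.15, SE 0.10, edgeR adjusted p = 0.000143). Both ligands were apart between genotypes.

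The HES-related repressors Bhlhe40 and Bhlhe41 had larger fitted changes, but these rested on cKO 1, and neither was called without any one of cKO 1, control 1 and control 2. Bhlhe40 had 2.44 and 0.193 CPM in cKO and 0.150 and 0.154 CPM in control libraries (log2 change 3.17, edgeR adjusted p = 0.0364), and without cKO 1 the change was 0.51 (edgeR adjusted p = 0.624). Bhlhe41 had 1.16 and 0.207 CPM in cKO and 0.177 and 0.0857 CPM in control libraries (2.38, edgeR adjusted p = 0.0425), and 0.78 (edgeR adjusted p = 0.432) without cKO 1.

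Among the lower genes was the proneural factor Neurod1, which had 9.27 and 8.53 CPM in cKO otic cells, against 49.8 and 47.6 CPM in control otic cells (log2 change -2.29, SE 0.09, edgeR adjusted p = 3.32e-06). This value depended on which cells counted as otic, as it was -0.14 with no doublets removed (edgeR adjusted p = 0.598), -0.14 at resolution 0.5 (0.587) and -0.40 with the stricter cell filter (0.306), and turned to 1.36 at resolution 2 (0.000893). The atypical ligand Dlk2 fell by 3.95 on the log2 scale, from few UMIs, with 0.0228 and 0.0553 CPM in cKO, against 0.708 and 0.840 CPM in control libraries. Maml2, a coactivator of the Notch complex, fell by 1.05.

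In placodal neurons 40 of the 51 genes were tested, with 14 higher and 7 lower in the cKO and a median log2 change of 0.17, beside -0.02 for all genes. The lower count was 2 without cKO 1, 3 without cKO 2 and 3 with DESeq2. Lfng, which modifies Notch receptors, had 61.0 and 85.8 CPM in cKO, against 9.55 and 5.01 CPM in control neurons (log2 change 3.47, SE 0.27, edgeR adjusted p = 0.00017). Dll1 had 45.2 and 51.0 CPM in cKO, against 13.01 and 6.61 CPM in control neurons (2.43, SE 0.25, edgeR adjusted p = 0.00056). Dlk1 and Neurog1 rose by 2.88 and 2.17 on the log2 scale. Helt, a HES-related repressor, fell by 3.11, Jag2, a ligand, by 1.37, the fringe gene Rfng by 0.78 and Fbxw7, which directs the turnover of active Notch, by 0.37. The Helt call was lost without cKO 1 (-2.21, edgeR adjusted p = 0.0575), that of Rfng under 5 of 12 alternatives and that of Fbxw7 under 7 of 12, both without either cKO library and without control 2. In neural tube progenitors 1 of 32 tested genes was called, Dll3, a ligand-like inhibitor of Notch, with 22.5 and 34.5 CPM in cKO, against 6.08 and 5.87 CPM in control libraries (log2 change 2.19, SE 0.34, edgeR adjusted p = 0.0101). That call was lost without control 2 (2.16, edgeR adjusted p = 0.149), and without cKO 2 the list held 7 genes called higher and 2 called lower.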

How the data were processed

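Single-cell RNA (10x 3′ v3.1) was measured in 4 libraries. The authors deposited raw UMI counts per gene and cell barcode; the matrix headers name Cell Ranger 6.0.1, whereas FastQC 0.11.4, Cell Ranger 3.1.0, Seurat 4.1.0 and mm10 stand in the submitters' processing notes. The members and lists were chosen with earlier results of these data known.

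From the counts, cells with at least 1000 genes and at most 10% mitochondrial UMIs were kept. Of these, the cells with the highest Scrublet scores, 0.8% per 1000 barcodes (124 to 160 per library), were removed as doublets, since the automatic threshold marked only 0 to 5 per library. Cells were clustered (scanpy 1.11.5, leidenalg 0.10.2, Python 3.11.15; 2000 variable genes, 30 components, resolution 1) without the members and 51 Notch pathway genes. Clusters were named from marker lists by a rule settled after the clusters were seen, and 184 and 101 cKO and 61 and 39 control cells stayed unnamed. Counts were summed per library and class and fitted with edgeR 4.0.16 in R 4.3.3 (quasi-likelihood test, TMM, low-count filter, no covariates), with Benjamini-Hochberg adjustment over all genes tested. A class needed 20 cells in every library, so endothelium and crest or glia-like cells were not fitted. Named genes were all members, up to 4 called Notch list genes per direction with the largest change in otic cells, neurons and neural tube progenitors, and the 5 genes most alike, of which the first and a few others are printed. A named gene of the Notch list is not reported here. Shares were thinned to 10000 UMIs, and intervals and floors cover counting error only. Tests were run on simulated counts with the same spread for all genes and no difference in clusters between genotypes. At a log2 change of 1, 89% to 97% of 100 changed genes were recovered, with 8 to 16 false calls per class. That check does not cover classes whose clusters differ by genotype. Alternatives were DESeq2 1.42.0, other factors, filters, doublet handling, resolutions, a replicate block and leaving out each library.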

Additional observations from a re-analysis of the deposited data

Results flagged for a closer look

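Differences between 2 classes in the response to the genotype, cKO over control, passed the test of the interaction itself (edgeR, log2 scale) in 9 cases. The log2 change in otic cells minus that in placodal sensory neurons was -2.892 for Hes5, -2.134 for Heyl, -2.087 for Hes1, -2.009 for Hey2, -1.202 for Hey1, -0.6831 for Hes6 and -0.5351 for Nrarp. For Hey2 the otic change was a fall, and the change in neurons missed the threshold. The Hes6 and Nrarp differences were lost under some settings, as given below. The otic response exceeded that of neural tube progenitors by 1.059 for Hes1 and 0.9628 for Hes5. Hes5 in otic cells is low, and otic and neuron clusters differ between the genotypes.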

How the results depend on the processing

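Within each comparison no alternative reversed a called member. Neurod1 in otic cells, a called gene of the Notch list, turned to 1.36 at resolution 2 (edgeR adjusted p = 0.000893), where the otic class held fewer cells. The cause was not tested. All 6 calls in placodal neurons held under all 12 alternatives, and those of Hes5, Hes6, Hey1 and Hey2 in otic cells did too. These alternatives did not hold the clusters that make up a class fixed. The same 6 members were higher in finer cluster 12 and coarser cluster 4. In finer cluster 26 Nrarp was lower in cKO (log2 change -0.53, edgeR adjusted p = 0.0399), and Hes1 and Heyl did not pass. In neuron cluster 3 no tested member passed. Counts of members called moved by over 1.5 times, or between 0 and a call, as follows. Without the low-count filter they were 5 in epibranchial neurons, 1 in mesenchyme, 1 in neural tube neurons, 2 in neural tube progenitors, 3 in surface ectoderm, 1 in neuron cluster 3 and 1 in finer cluster 12 (28 genes called in all, against 917). Epibranchial neurons also had 5 with no doublets removed, and surface ectoderm 2 at resolution 2. DESeq2 called 3 in finer cluster 12, with 2 members given no adjusted p, and 1 in finer cluster 26, with 4 members given none. Replicate numbers did not pair the libraries (r between -0.149 and 0.0937); the replicate block gave 2 in neural tube progenitors, 1 in surface ectoderm and 2 in neuron cluster 3, and the crossed pairing in surface ectoderm, chosen after seeing the data, gave 2 (1209 genes, against 552).

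When each library was left out in turn, members called ranged between 4 and 6 in otic cells, 6 and 7 in placodal neurons, 1 and 4 in epibranchial neurons, 0 and 2 in neural tube progenitors, and 0 and 4 in surface ectoderm. They ranged between 0 and 1 in mesenchyme, neural tube neurons and leukocytes. In the finer clusters the range was 0 to 5 in cluster 12 and 2 to 5 in cluster 26. A lone library left in a genotype is assumed to vary like the other group.

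For the otic minus neuron difference, 3 other settings removed the calls of Hes6 (-0.13, adjusted p = 0.218 with no doublets removed; -0.21, 0.104 at resolution 0.5; -0.02, 0.93 at resolution 2) and of Nrarp (-0.25, 0.127; -0.26, 0.142; -0.04, 0.877, in the same order). Hes1 lost it with DESeq2 (-2.27, adjusted p = 0.0822). Without cKO 2 the calls of Hey2 (-1.38, adjusted p = 0.105) and Nrarp (-0.47, 0.0921) were lost. The cause was not tested. The endothelium comparison was not run, because control 2 held 18 cells. Few cells limit endothelium, crest or glia-like and leukocyte values, and surface ectoderm in control 2.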
